A study of Mus musculus with 2 samples.

Results

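A set of 10 receptors was followed in the liver of apoE-KO mice: Hnf4a, Rxra, Rxrb, Rxrg, Nr5a2, Nr1i2, Nr1i3, Ppard, Pparg and Rora. They are hepatic nuclear receptors other than the liver X receptors and the farnesoid X receptor, and they were taken by gene name. Of 27962 gene names on the array these are 10, read by 16 probes, and every probe is given here. The mice were male C57BL/6 animals lacking apoE. From 10 weeks of age they received normal chow, or that chow with 1.25% Chol added (the high-Chol diet), for 1 week. Liver RNA was hybridized to one-colour Agilent whole mouse genome arrays in 3 independent experiments for each diet. All 6 arrays lacked apoE, and whether an array held RNA of 1 mouse or of several is not given in the sources used here.

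Nuclear receptors are transcription factors, and most of them are switched by small lipid-like ligands such as fatty acids, retinoids, steroids and bile acids. The retinoid X receptors (RXR) are shared partners: the PPARs, the pregnane X receptor (PXR, Nr1i2) and the constitutive androstane receptor (CAR, Nr1i3) bind DNA as pairs with an RXR. HNF-4α acts as a homodimer that keeps hepatocyte genes switched on, LRH-1 (Nr5a2) binds as a monomer at genes of bile acid synthesis, and RORα (Rora) connects lipid metabolism with the circadian clock.

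No member probe passed the test between the diets. Levels are given as the log2 signal of a probe minus the 75th percentile of its array, and differences are high-Chol diet minus normal chow. Only probes well above background on each array of either diet or both were tested, which held for 15 of the 16 member probes. In limma, with Benjamini-Hochberg adjustment over 23912 probes and a threshold of 0.05, 0 of the 15 were called, against 2.62% of all tested probes. Their adjusted p ranged from 0.146 to 0.63. At an unadjusted p under 0.05, 4 probes were lower (both of Rxra, 1 of 3 of Hnf4a and that of Nr1i2) and 1 was higher (Rxrg). The background shares at that threshold were 8.42% lower and 11.6% higher.

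The differences pointed mostly one way. Of the 15 tested probes 13 were lower on the high-Chol diet, against 52.8% of all tested probes, and those of Rxrg and Pparg were higher. On the brightest tested probe of each gene, 7 of 9 members were lower, against 52.2% of all 16726 genes, and the median was -0.36 beside -0.02. On 5 probes, of Rxra, Hnf4a and Nr1i2, each high-Chol array lay below each chow array, against 13.3% of all probes. None lay wholly above, against 11.4%. With a normexp background 13 of 15 were still below 0 but only 9 lay below the median of all probes, and the members' median was 0.04 above that median. Rxra and Hnf4a were also in the study's own list of lipid-related genes, picked on these arrays, so their direction here is no independent evidence.

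Slide and diet overlapped in part. The 3 chow arrays and high-Chol array 1 lay on slide 1, and high-Chol arrays 2 and 3 on slide 2, which was also read with another software version. The 75th percentile signal was 271 to 373 on slide 1 and 762 and 799 on slide 2. On chow array 1 50.5% of spots were well above background, and on the other arrays 60.2% to 67.2%. Within slide 1, 10 of the 15 probes were lower on high-Chol array 1 than the chow mean, against 57.0% of all tested probes, and the median over the 9 genes was -0.07. On slide 1 the Rxrb and Nr5a2 probes turned to the other side of 0.

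The tissue read as liver, and its cell markers differed between the diets. Counts and medians over a list of genes use the brightest tested probe of each gene, and for some genes other probes that part from it are given. All 8 hepatocyte markers found, Alb among them, were well above background on every array, and 7 were lower on the high-Chol diet with a median of -0.35 and none called. Their summed level on the linear scale was 2355 to 2574 on chow and 1715 to 2074 on the high-Chol diet. All 10 macrophage markers were higher and 5 were called (Cd68, Marco, Cd5l, Itgax and Lyz2), with summed levels of 163 to 194 and 402 to 541. Itgax was well above background on 2 of 3 chow arrays and so passed the filter through the high-Chol group, and its second probe differed by 0.27. S100a8 and S100a9, which mark neutrophils and inflamed myeloid cells, and the collagen gene Col1a1 of stellate cells were called higher too, though a second Col1a1 probe differed by only 0.39 (adjusted p = 0.363, limma). With slide as a block none of the 16 probes called among the listed genes, Gadd45b, Lpl, Fabp4, Cpt1a and Tef included, was still called (limma adjusted p of 0.098 to 0.422), though all 16 kept their direction. Of endothelial markers 5 of 8 were higher and of cholangiocyte markers 5 of 6 were lower, none called. The endothelial marker Lyve1 differed by 0.41 on its brightest probe and -0.05 on another. Another probe of the cholangiocyte marker Sox9 differed by 0.06. Of 6 adipocyte markers 3 were tested (Plin1, Cfd and Fabp4), none called on the brightest probe. Their differences were 0.89, 1.15 and 0.67, and on slide 1 they were 0.25, -1.07 and 0.73. Plin1 was well above background on 1 of 3 chow arrays, so it passed the filter through the high-Chol group, and the defining markers Adipoq and Lep were not well above background on any array. The summed adipocyte level was 6.33 to 8.11 on chow and 9.96 to 14.1 on the high-Chol diet. The hepatocyte median of -0.35 stood beside -0.36 for the receptors, and on slide 1 these were -0.16 and -0.07. The part of cell make-up in the receptor values was not tested. In whole liver RNA fewer hepatocytes and less RNA per hepatocyte cannot be told apart.

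**Figure D1:**
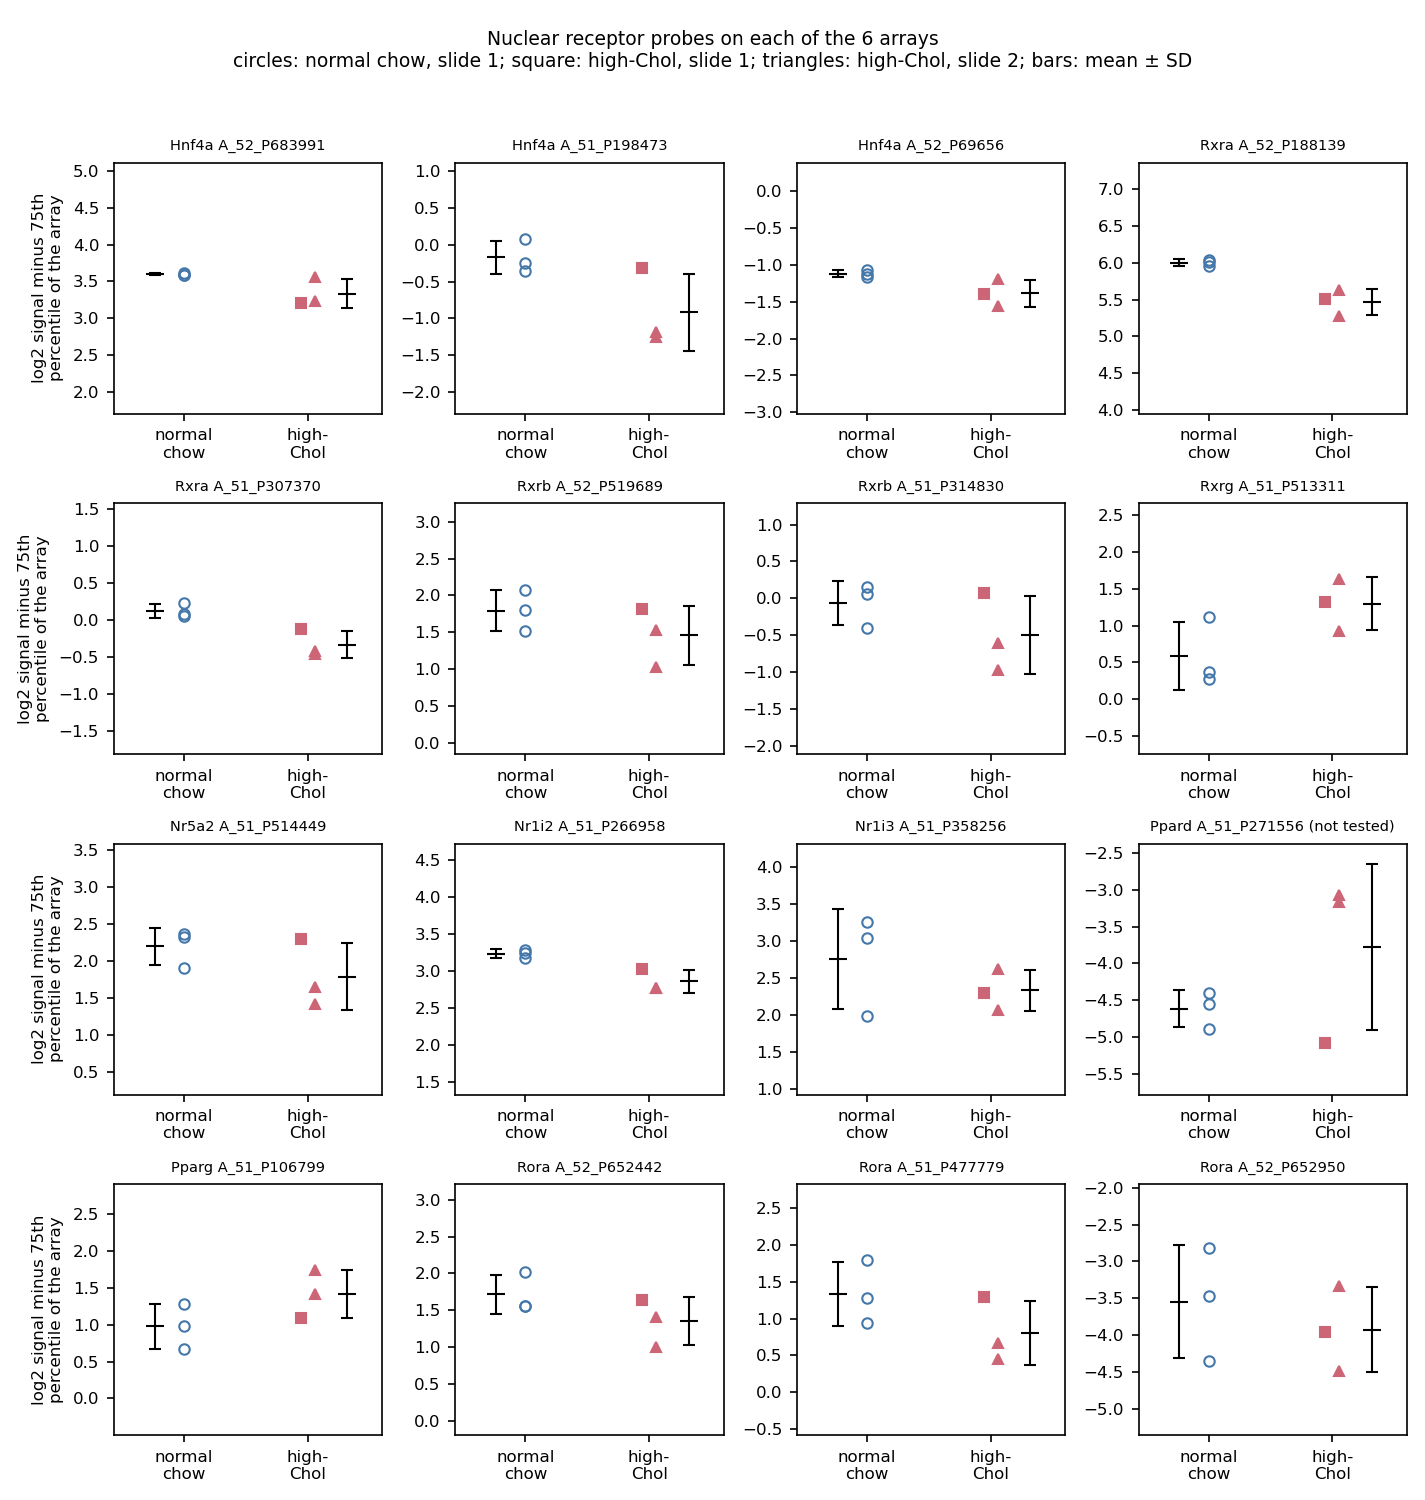
Level of each of the 16 member probes on each array (y axis, log2 signal minus the 75th percentile of the array, each panel spanning the same number of log2 units), for normal chow (circles) and the high-Chol diet (square for slide 1, triangles for slide 2), with mean ± SD beside the points. Both Rxra probes, the Nr1i2 probe and Hnf4a probes A_52_P683991 and A_52_P69656 keep the diets apart, and Ppard is high only on the slide 2 arrays.

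Several sequences show what the probes read. They were taken from the array annotation, are written 5′ to 3′ in the sense of the transcript, and have mm7 positions. The 3 Hnf4a probes are shown because 1 of them, A_51_P198473, had a larger fitted difference than the others. For A_52_P69656 the capitals mark a pair of cysteine codons of the second zinc finger of the DNA-binding domain with the codons between them. For A_51_P198473 the first 30 bases are shown, and for A_52_P683991 the 30 bases around AATAAA, the letters of the common polyadenylation signal, in capitals. AATAAA stood in 4.53% of all tested probes, searched on the probe strand alone.
Hnf4a A_52_P69656: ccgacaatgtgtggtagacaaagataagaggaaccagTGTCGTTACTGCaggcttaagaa
Hnf4a A_51_P198473: ctggactcctctcaagttgaagtcatcgtc
Hnf4a A_52_P683991: cagggaacatggAATAAAggaaagtttact

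The other probes shown lie in coding sequence. Those of Rxrb, Ppard and Nr1i3 fall in the ligand-binding domain, the part that holds the ligand and meets coactivators. That of Rora encodes the end of the protein, with the in-frame stop codon in capitals. They are shown because the 60 bases of the Rxrb probe are placed on a longer stretch of the genome, across an intron, the Ppard probe was measured on slide 2 alone, the Nr1i3 probe varied most among chow arrays of those well above background throughout, and the Rora probe differed most of the 3 for that gene.
Rxrb A_51_P314830: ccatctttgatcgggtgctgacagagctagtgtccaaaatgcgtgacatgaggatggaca
Ppard A_51_P271556: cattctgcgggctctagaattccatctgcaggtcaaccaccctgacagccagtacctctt
Nr1i3 A_51_P358256: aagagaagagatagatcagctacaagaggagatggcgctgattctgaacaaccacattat
Rora A_51_P477779: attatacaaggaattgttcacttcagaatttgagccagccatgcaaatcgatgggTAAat

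Rxra, the main RXR of hepatocytes, had the lowest p of the members. Probe A_52_P188139 (chr2:27770202-27770261, mm7, plus strand) read 6.01, 6.04 and 5.95 on the chow arrays and 5.50, 5.27 and 5.63 on high-Chol arrays 1, 2 and 3. The diets did not overlap, and the level was 6.00 ± 0.04 (SD, n = 3) against 5.47 ± 0.18 (SD, n = 3). The difference was -0.53 ± 0.16 (SE), 1.44-fold lower, with a 95% interval of -0.90 to -0.16 and a limma adjusted p of 0.146. On slide 1 alone it was -0.49, about the same size. The second probe, A_51_P307370, lies 3095 bases upstream of the first and read 0.09, 0.06 and 0.23 on chow. On the high-Chol diet it read -0.12, -0.42 and -0.46. Its diets were likewise apart, with a difference of -0.46 ± 0.16 and a limma adjusted p of 0.197. Here slide 1 gave -0.24 and slide 2 -0.56. With array weights this probe was called (adjusted p = 0.043, limma), and so it was without high-Chol array 1 (adjusted p = 0.050), which leaves diet and slide the same split. Of all probes, array weights called 2518 higher and 1120 lower of 23912. Leaving out high-Chol array 1 called 3885 higher and 998 lower of 25285.

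The other RXRs, Rxrb and Rxrg, overlapped between the diets. Rxrb, expressed in most tissues, was read by A_52_P519689 (chr17:32116894-32116953, mm7, plus strand) at 1.80, 1.52 and 2.07 on chow and 1.82, 1.53 and 1.03 under the high-Chol diet. Its intron-spanning probe A_51_P314830 (chr17:32115588-32115762, mm7, plus strand) read 0.05, -0.40 and 0.15 on chow and 0.07, -0.61 and -0.97 under the high-Chol diet. On both probes high-Chol array 1 lay among the chow arrays and array 3 was the lowest of all. The differences were -0.34 ± 0.25 and -0.43 ± 0.29, with limma adjusted p of 0.455 and 0.418, and on slide 1 they were 0.02 and 0.14. Rxrg is best known from skeletal muscle and brain. Its probe A_51_P513311 (chr1:167616274-167616333, mm7, plus strand) read 1.11, 0.37 and 0.28 on chow and 1.32, 0.92 and 1.64 under the high-Chol diet. High-Chol array 2 lay below chow array 1, so the diets overlapped. The difference was 0.70 ± 0.28, 1.63-fold higher, with a 95% interval of 0.04 to 1.37 and a limma adjusted p of 0.234, and it was 0.73 on slide 1. Of the 6 skeletal muscle markers 1 was tested, Myh1, which differed by -0.84 ± 0.18 (adjusted p = 0.066, limma), and Mb was not well above background on any array.

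Hnf4a was lower on average on all 3 of its probes, and 2 of them gave nearly the same difference. A_52_P69656, the DNA-binding domain probe (chr2:163293456-163293515, mm7, plus strand), read -1.13, -1.16 and -1.07 on chow and -1.40, -1.20 and -1.56 under the high-Chol diet. A_52_P683991, the probe farthest downstream (chr2:163313228-163313287), read 3.59, 3.59 and 3.62 on chow and 3.20, 3.57 and 3.24 under the high-Chol diet. On both of these the diets did not overlap, but high-Chol array 2 came close to the lowest chow array. The differences were -0.27 ± 0.16 and -0.26 ± 0.16, 1.20-fold lower each, with limma adjusted p of 0.374 and 0.382.

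The third Hnf4a probe was low on slide 2 alone. A_51_P198473 (chr2:163311219-163311278, mm7, plus strand) lies 17763 bases downstream of the first and 2009 bases upstream of the last. It read -0.25, -0.35 and 0.08 on chow, -0.32 on high-Chol array 1, and -1.18 and -1.25 on arrays 2 and 3. High-Chol array 1 lay among the chow arrays and both slide 2 arrays far below. The difference was -0.74 ± 0.28, 1.67-fold lower, with a limma adjusted p of 0.210. It was -0.14 on slide 1 and -1.04 for slide 2 against chow. It was called with array weights (adjusted p = 0.030, limma) and without high-Chol array 1 (adjusted p = 0.015), and the fit with slide as a block gave an adjusted p of 0.900. Of all probes, array weights called 1120 of 23912 lower and 2518 higher. Without high-Chol array 1 it was 998 of 25285 lower and 3885 higher. Within arrays, the last Hnf4a probe stood 3.77 log2 units above A_51_P198473 on chow and 4.25 under the high-Chol diet. That shift of 0.48 had an exact permutation p of 0.4, two-sided, and 3 against 3 arrays cannot go below 0.1. Between the first and last probes the same within-array difference moved by 0.001. Of the 8 probe pairs within a gene that were compared none had an exact p under 0.3, and in this design none could have passed.

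HNF-4α target genes leaned the same way without passing the test. Of 12 targets tested 11 were lower, against 52.2% of all genes, and 1, Ttr, was higher, with a median of -0.36. None was called, against 2.68% of all genes called higher and 0.209% called lower. The 4 with the largest differences were Cyp8b1, the sterol 12α-hydroxylase of bile acid synthesis (-1.34 ± 0.55), Apom (-0.61 ± 0.22), Apoa1 (-0.57 ± 0.23) and Mttp, which loads lipid onto apoB (-0.50 ± 0.22), with limma adjusted p of 0.24, 0.197, 0.233 and 0.258. Cyp8b1 read 3.10, 2.24 and 2.61 on chow, 2.61 on high-Chol array 1 and 0.98 and 0.36 on arrays 2 and 3. On slide 1 the median of the 12 was -0.08. Apoa1 and Ttr were also listed as hepatocyte markers, and Cyp8b1 and Apom as LRH-1 targets, so these lists are not independent.

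**Figure D2:**
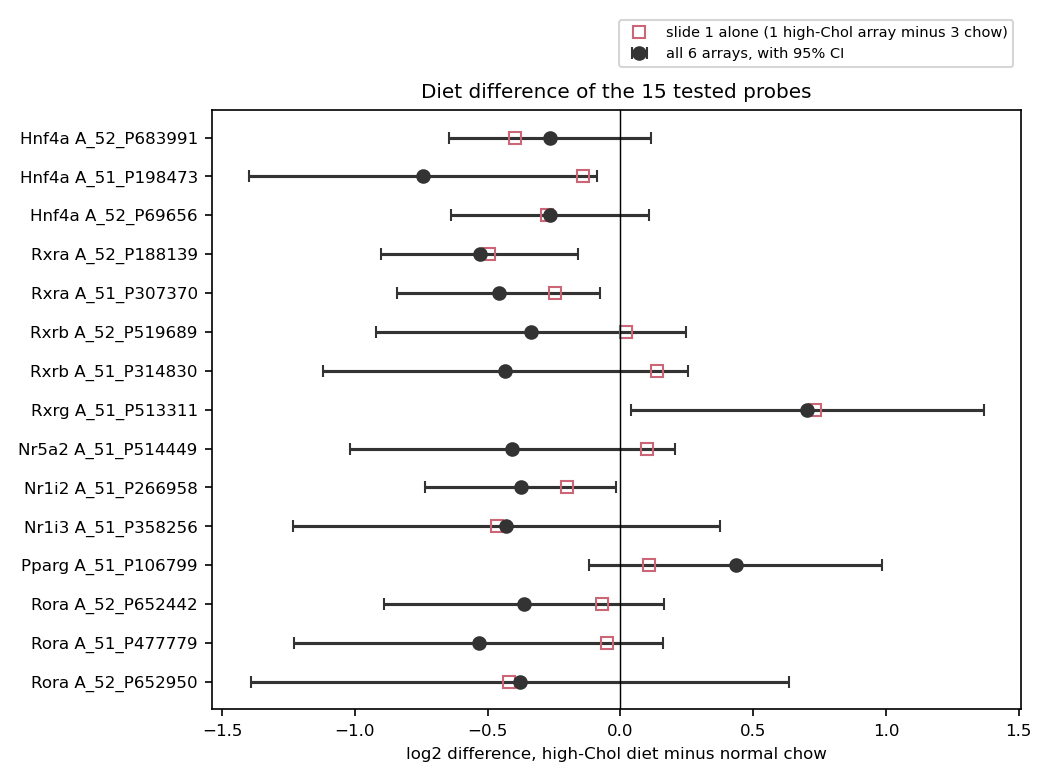
Log2 difference between the diets (x axis) for the 15 tested probes (y axis), as the estimate over all 6 arrays with its 95% interval (filled circles) and as the single slide 1 comparison of high-Chol array 1 with the 3 chow arrays (open squares). All 15 limma adjusted p were 0.146 or above, and the squares of Rxrb and Nr5a2 lie to the right of 0 while their circles lie to the left.

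Nr5a2 encodes LRH-1, which switches on Cyp7a1 and Cyp8b1 and is held back by SHP (Nr0b2). Its probe A_51_P514449 (chr1:136732418-136732477, mm7, minus strand) read 2.32, 2.36 and 1.91 on chow and 2.30, 1.65 and 1.42 under the high-Chol diet. High-Chol array 1 sat at the chow level and the others below it. The difference was -0.41 ± 0.26 with a limma adjusted p of 0.399, and on slide 1 it was 0.10. Of 8 LRH-1 targets tested 5 were lower and 3 higher, none called, with a median of -0.39 that turned to 0.16 on slide 1. Cyp7a1, the rate-limiting enzyme of bile acid synthesis, was the most uneven, with 3.73, 4.49 and 4.99 on chow and 2.80, 1.05 and 5.36 under the high-Chol diet. Nr0b2 was higher on every high-Chol array, from -0.25, -0.30 and 0.25 to 1.20, 1.58 and 0.30, by 1.13 ± 0.34 with an adjusted p of 0.148.

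The xenobiotic receptors PXR and CAR were both lower on average, with unequal spread. The Nr1i2 probe A_51_P266958 (chr16:37955460-37955519, mm7, minus strand) read 3.28, 3.24 and 3.17 on chow and 3.03, 2.77 and 2.77 under the high-Chol diet. The diets did not overlap, the difference was -0.38 ± 0.15, 1.30-fold lower, and the limma adjusted p was 0.238. Slide 1 gave -0.20. The Nr1i3 probe A_51_P358256 (chr1:171187738-171187797, mm7, plus strand) read 1.99, 3.26 and 3.04 on chow and 2.30, 2.07 and 2.63 under the high-Chol diet. Chow array 1 was the lowest of the 6, so the diets overlapped, and the difference of -0.43 ± 0.34 had a limma adjusted p of 0.485. It was -0.82 without chow array 1 and -0.18 without chow array 2.

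Of 14 PXR and CAR targets tested, 11 were lower and 3 higher, with a median of -0.26. Only Gadd45b was called, higher by 2.84 ± 0.45 with a limma adjusted p of 0.025, and its second probe was called as well (2.28 ± 0.28, adjusted p = 0.012). It is a stress-induced gene that CAR activators also induce, and it read -3.00, -2.42 and -1.49 on chow and -0.04, 1.23 and 0.43 under the high-Chol diet. The markers S100a8 and S100a9 were called higher on the same arrays. All 10 macrophage markers were higher and 5 were called, Itgax among them after passing the filter through the high-Chol group. The part of these cells in the Gadd45b value was not tested. Cyp3a11, the classical PXR target, differed by 0.47 ± 0.27 and Cyp2b10, the classical CAR target, by -0.18 ± 0.34 (adjusted p of 0.36 and 0.78). The next largest differences were those of Alas1, the first enzyme of heme synthesis (-1.74 ± 0.60), Por, the electron donor of the cytochromes P450 (-0.75 ± 0.34), and the transporter Slco1a4 (-0.69 ± 0.33), with adjusted p of 0.186, 0.27 and 0.281.

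Of the PPARs in the group Pparg was tested and not called, and Ppard was not tested. Pparg, the adipogenic PPAR, which hepatocytes and macrophages also express, was read by 10 spots of A_51_P106799 (chr6:115515909-115515968, mm7, plus strand). Their mean was 0.67, 0.98 and 1.28 on chow and 1.09, 1.74 and 1.41 under the high-Chol diet. High-Chol array 1 lay within the chow range and the slide 2 arrays above it. The difference was 0.43 ± 0.24, 1.35-fold higher, with a limma adjusted p of 0.334, and it was 0.11 on slide 1. Of 7 tested PPARγ targets 5 were higher, and 1 was called on its brightest probe: Lpl, the lipase that hydrolyses lipoprotein TG, higher by 1.87 ± 0.21 with an adjusted p of 0.0099. Lpl read 1.44, 0.85 and 1.40 on chow and 3.00, 3.28 and 3.03 under the high-Chol diet, and it was 1.76 higher on slide 1. Macrophages express Lpl as well, and all 10 macrophage markers were higher on the high-Chol diet. Of these 5 were called, Itgax among them after passing the filter through the high-Chol group. The part of macrophages in the Lpl value was not tested. The other large differences were those of the fatty acid transporter Cd36 (1.44 ± 0.45), the lipid droplet protein Cidec (-0.72 ± 0.37) and the fatty acid binding protein Fabp4 (0.67 ± 0.20), with adjusted p of 0.163, 0.315 and 0.139. Of the other Fabp4 probes A_52_P564544 was called (0.92 ± 0.17, limma adjusted p = 0.042) and A_51_P336830 was not (0.68 ± 0.16, adjusted p = 0.085).

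Ppard was close to the limit of detection. Its probe A_51_P271556 (chr17:26486311-26486370, mm7, plus strand) was not well above background on any of the 4 slide 1 arrays, at -4.41, -4.55 and -4.89 on chow and -5.07 on high-Chol array 1, but was so on slide 2, at -3.08 and -3.17. With 2 of 3 high-Chol arrays measured and none on chow, the probe was not tested. Without high-Chol array 1 it passed the filter, through the slide 2 arrays alone, so its call there (limma adjusted p = 0.0062) sets them against chow values below detection and supports no size of difference. Of all 25285 probes 3885 were called higher in that setting. Diet and slide are then the same split and cannot be told apart. Of 6 tested PPARδ targets 3 were higher and 3 lower, none called on the brightest probe, and the largest differences were Pdk4, a brake on glucose oxidation (1.18 ± 0.36), Cpt1a, the gate of mitochondrial fatty acid oxidation (-0.89 ± 0.21), Angptl4, an inhibitor of Lpl (-0.87 ± 0.39), and Ucp2 (0.43 ± 0.15). Their adjusted p were 0.153, 0.082, 0.264 and 0.199. The second Cpt1a probe, A_52_P219753, was called lower (-1.38 ± 0.24, limma adjusted p = 0.036).

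Rora was read by 3 probes. A_52_P652442 and A_51_P477779 start 100 bases apart (chr9:69410920-69410979 and chr9:69411020-69411079, mm7, plus strand). The former read 1.56, 2.02 and 1.56 on chow and 1.65, 1.41 and 1.01 under the high-Chol diet. The latter read 0.93, 1.80 and 1.28 on chow and 1.29, 0.67 and 0.45 under the high-Chol diet. On both, high-Chol array 1 lay within the chow range and the slide 2 arrays below it, and the differences were -0.36 ± 0.22 and -0.53 ± 0.30 with limma adjusted p of 0.388 and 0.344. On slide 1 they were -0.07 and -0.05. The third probe, A_52_P652950, lies 6394 bases further downstream and was annotated to a separate cDNA clone. It was dim, at -4.34, -2.82 and -3.47 on chow, the first not well above background, and at -3.96, -3.33 and -4.48 on the high-Chol diet. The difference was -0.38 ± 0.43 with an adjusted p of 0.63, and leaving out single arrays moved it from -0.78 without chow array 1 to -0.02 without chow array 2.

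RORα drives Arntl, and clock genes varied strongly between these arrays. Of 7 tested RORα targets 4 were lower and 3 higher, none called. Arntl differed by 2.45 ± 0.89, the fatty acid elongase Elovl3 by 1.66 ± 0.78, G6pc, the last step of glucose output, by 1.19 ± 0.31, and the oxysterol 7α-hydroxylase Cyp7b1 by -1.04 ± 0.30, with adjusted p of 0.201, 0.279, 0.107 and 0.138. Of 14 tested clock genes 11 were lower and 3 higher, with a median of -0.97 and none called on its brightest probe. Of the 10 other probes of these genes 1 was called, a probe of the clock output factor Tef (-1.53 ± 0.29, limma adjusted p = 0.046). Dbp, another output factor, read 6.57, 6.49 and 6.80 on chow and 0.86, 0.86 and 5.64 on high-Chol arrays 1, 2 and 3. This split ran across slide 2, unlike that of Rora. The time of day at which each liver was taken is not given in the sources used here, and its part in the receptor values was not tested.

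**Figure D3:**
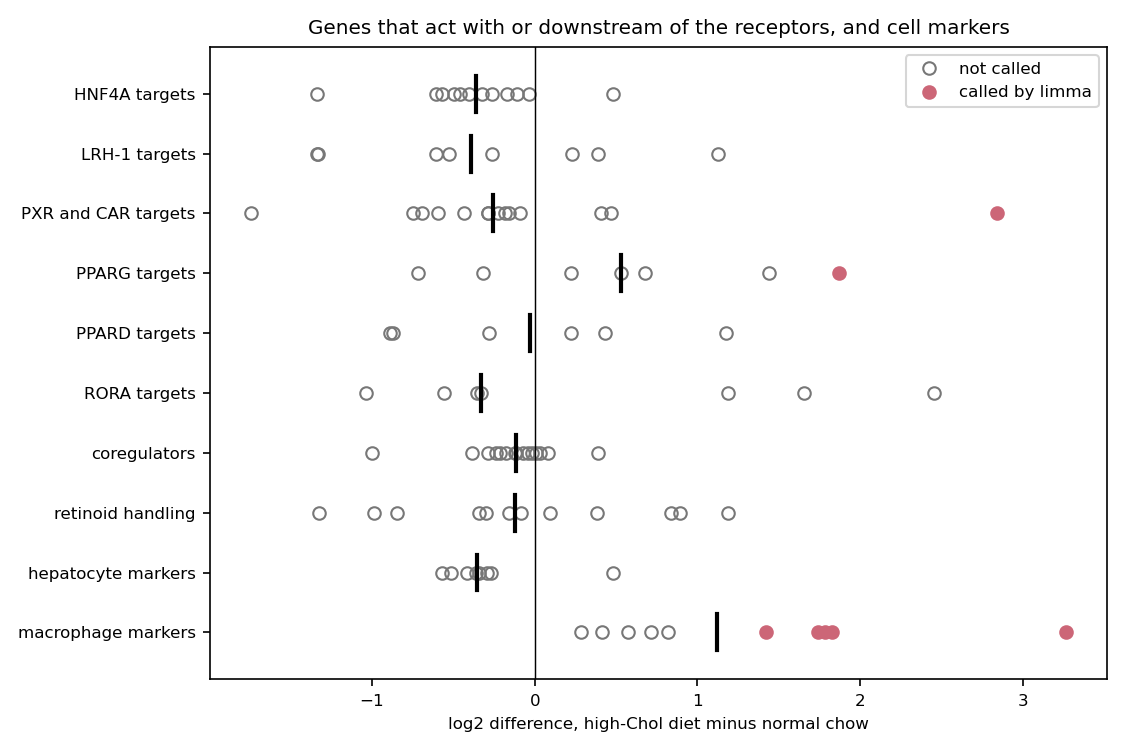
Log2 difference between the diets (x axis) of single genes, on the brightest tested probe of each, for targets and partners of the receptors and for hepatocyte and macrophage markers (y axis), with filled circles for genes called by limma and a black bar at the median of the list. The HNF-4α target and hepatocyte medians stand at -0.36 and -0.35, for lists that share Apoa1 and Ttr. The called genes are Gadd45b, Lpl and 5 macrophage markers.

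The coregulators and retinoid genes that act with RXR showed no called member. Of 15 coregulators 11 were lower and 4 higher, with a median of -0.11. The largest difference was in Ppargc1b, a coactivator of oxidative and lipogenic genes, at 1.64 ± 0.43 on chow and 0.64 ± 0.24 under the high-Chol diet (SD, n = 3, limma adjusted p = 0.103), with no overlap. Its other probes differed by -1.44 and -1.66, with adjusted p of 0.075 and 0.070. Nrip1, a corepressor, differed by 0.39 ± 0.19, Ncor1, another, by -0.38 ± 0.19, and Tbl1xr1, an exchange factor for corepressors, by -0.29 ± 0.20. The other Ncor1 probes ranged from -0.42 to -0.04. Of 12 tested genes of retinoid handling 7 were lower and 5 higher, with a median of -0.12. Cyp26b1, which clears retinoic acid, differed by -1.32 ± 0.52, the retinol receptor Stra6 by 1.19 ± 0.57 and Rdh11 by -0.99 ± 0.45, with limma adjusted p of 0.223, 0.288 and 0.271. On slide 1, with 1 high-Chol array, the Stra6 difference was -0.28, and slide 2 held no chow array.

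Of 49 nuclear receptor genes on the array 35 were tested and none was called. Outside the 10 members 26 were tested, of which 15 were lower and 11 higher, with a median of -0.19, beside -0.36 for the members. The order of these medians was not tested, and it turned within slide 1, where they were -0.14 and -0.07. The 4 largest differences were all outside the members: Nr4a1, an early-response receptor (1.77 ± 0.42), Nr0b2, Nr1d2, a clock repressor (-0.97 ± 0.24), and Nr2c2 (-0.95 ± 0.35), with limma adjusted p of 0.085, 0.148, 0.095 and 0.21. The second Nr2c2 probe differed by only -0.13. Among the partners of RXR 13 of 16 were tested, 7 higher and 6 lower. Ppara differed by -0.94 ± 0.26 and Nr1h4, the farnesoid X receptor, by -0.81 ± 0.26, with adjusted p of 0.125 and 0.168. Rarg differed by -0.48 ± 0.26 with an adjusted p of 0.331.

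**Figure D4:**
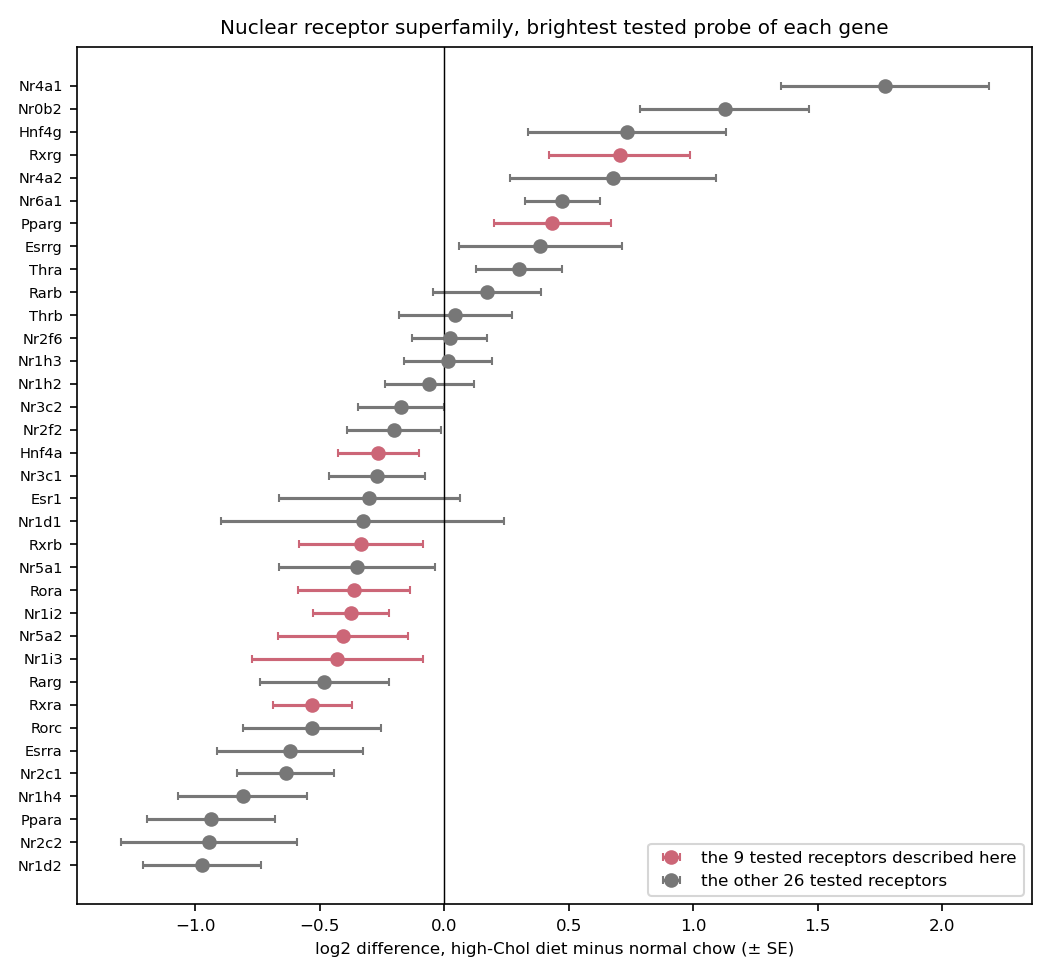
Log2 difference between the diets ± SE (x axis) for the 35 tested nuclear receptor genes (y axis, ordered by the difference), on the brightest tested probe of each, with the 9 tested members coloured and the other 26 grey. Of the members, Rxra has the lowest value (-0.53) and Rxrg the highest (0.70), and both ends of the plot are held by other receptors.

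The genes whose levels ran most like those of Rxra and Hnf4a over the 6 arrays were listed as a description. Among 14044 other genes, all on their brightest probe, Rxra ran closest to BC056481, Stard4 and Pde4dip, with Pearson's r of 0.995, 0.991 and 0.990. Hnf4a, on its brightest probe, ran closest to Dido1, Cabyr and Cdc5l, with r of 0.995, 0.991 and 0.986. No p is given, and the 6 points share 2 slides.

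**Figure D5:**
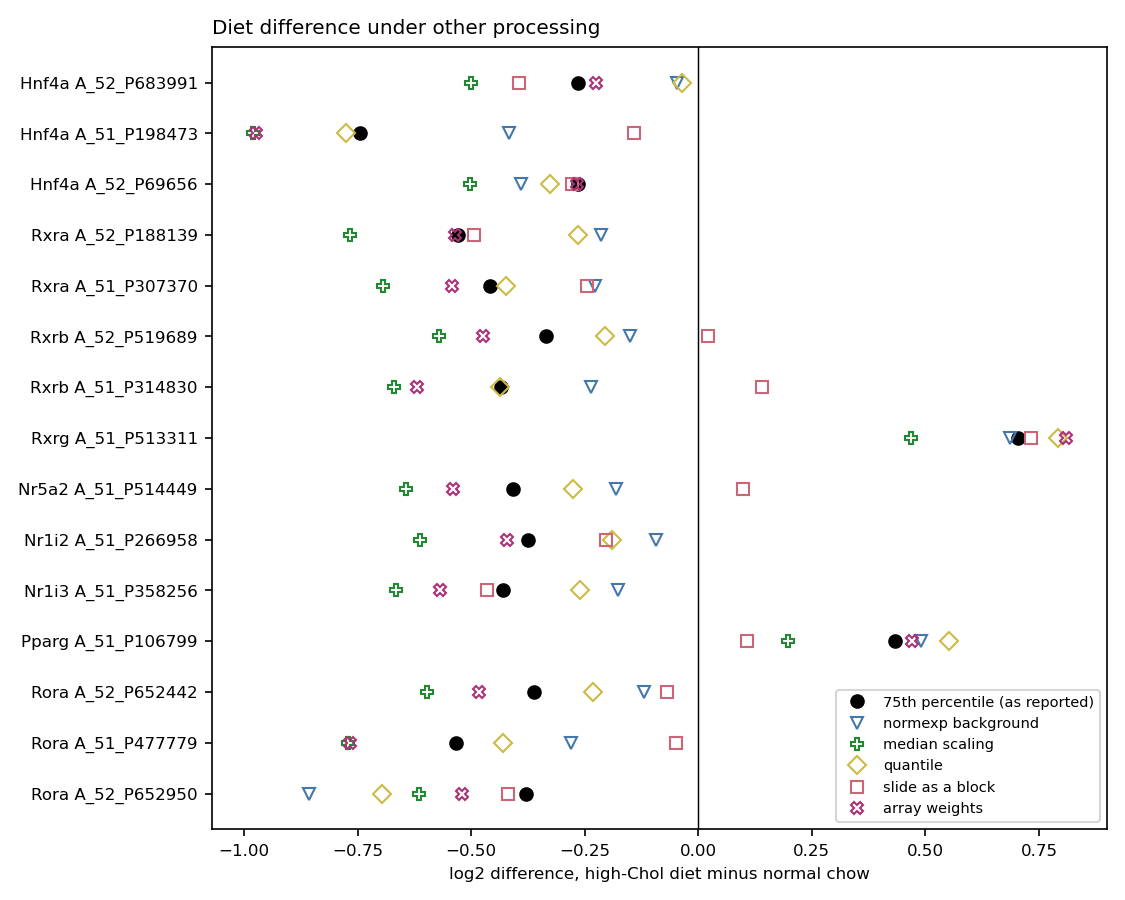
Log2 difference between the diets (x axis) of the 15 tested probes (y axis) under the 75th percentile scale used here and under 5 other ways of processing the same arrays. The open squares, with slide as a block, cross 0 for both Rxrb probes and for Nr5a2, and no other shown setting crosses 0 for any probe.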

How the data were processed

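Liver RNA of apoE-KO mice on 2 diets was read on 6 one-colour Agilent arrays. The authors deposited spot intensity values as written by Agilent Feature Extraction (9.5 for slide 1, 9.1 for slide 2, per the file headers; the submitters' processing notes name 9.1), background-subtracted but not normalized between arrays, and 1 log2 value per probe and diet for 23458 probes, made in Gene Spring GX with settings not given in the sources used here. Set against the scanner values, the diet differences in that deposited log2 table had a slope of 1.00 and a median offset of -0.24 from the 75th percentile scale and -0.0063 from median scaling. Its columns had medians of -0.0019 and -0.27, and how it was centred stays unknown.

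Here each array's 75th percentile was subtracted from its log2 signals, leaving out 1639 control spots and 75 to 196 outlier spots per array, and spots of a probe were averaged. The comparison used limma 3.58.1 (R 4.3.3). The fit was also run on simulated arrays with known changes. These had independent noise for each probe and no slide effect, so that run cannot speak to the part of slide. Tables used pandas 2.3.3 and plots matplotlib 3.10.9. Spread between arrays may be partly technical, and 3 arrays per diet limit the precision. Names come from the array design. Of 207 listed genes 189 matched by name, 14 by accession (assembly GRCm38.p6, names alone) and 4 had no match. The members and lists were chosen with earlier results of these data known. All member probes are named, and from each other list its called genes and up to 4 genes with the largest difference among those well above background on all arrays; Cyp3a11, Cyp2b10, Ppara, Nr1h4, Mb, Adipoq, Lep, Plin1 and Alb were named after their values were seen. 1 gene that this rule names is not reported here.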

Additional observations from a re-analysis of the deposited data

How the results depend on the processing

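The count of member probes called was 0 in 15 of the 17 alternatives that give a test. It was 2 of 15 with array weights, a probe each of Hnf4a and Rxra, where high-Chol array 1 had the lowest weight (0.353). Of all 23912 probes that setting called 2518 higher and 1120 lower. The member count was 0 to 3 when single arrays were left out, and 3 of 16 without high-Chol replicate 1. There 3885 of all 25285 probes were called higher and 998 lower. The third member probe was that of Ppard, which passed the filter there through the high-Chol arrays alone. The count of lower member probes was 10 of 15 with slide as a block, 7 of 9 genes with 1 probe per gene or probes averaged per gene, and 12 of 14 or 13 elsewhere. The Rxrb probes A_52_P519689 and A_51_P314830 and the Nr5a2 probe reversed with slide as a block, to 0.022, 0.14 and 0.098. The Hnf4a probe A_51_P198473 went to -0.97 with array weights and -1.04 without high-Chol replicate 1, and the Rxra probe A_51_P307370 to -0.54 and -0.56, past the threshold each time. The members' median was -0.07 with slide as a block and -0.12 with a normexp background, and elsewhere -0.20 to -0.60. Scaling moved the median of all tested probes to -0.16 with normexp, -0.26 with median scaling and -0.27 in the authors' values, from -0.03. Calls over all probes, 565 higher and 61 lower, became 0 and 0 with normexp (offset 50), 406 and 111 with median scaling, 444 and 40 with quantile normalization, 4 and 0 with no filter, 450 and 38 with 1 probe per gene, 456 and 39 with the mean of probes, 1 and 0 with slide as a block, 1 and 0 with the methods' t-test, 2518 and 1120 with array weights, and 559 and 120 with a trended and robust prior. Leaving out single arrays gave 38 to 3885 higher and 0 to 998 lower, the most without high-Chol replicate 1 and the fewest without normal chow replicate 2. The cause was not tested. No paired analysis was possible because the labels tie no single array to a replicate number, and the numbers used here only name arrays in the order of the deposited files.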
